A study of Mus musculus with 8 samples.

Results

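The 8 genes described here belong to the Wnt pathway and were followed through the forming mouse heart. They are the ligands *Wnt2*, *Wnt11* and *Wnt5a*, the secreted inhibitors *Sfrp1*, *Sfrp5* and *Dkk1*, and the targets *Axin2* and *Lef1*. They were chosen by name, and all 8 were found among the 24385 features of the deposited table. RNA sequencing was carried out on hearts of C57BL/6 embryos at embryonic day 8.5 (E8.5) and 9.5 (E9.5), with 2 biological replicates in each of 4 groups. The cKO hearts, labelled Mesp1Cre/+; Dgcr8-/-, carry *Dgcr8* alleles that are deleted in the progeny of *Mesp1*-expressing cells. By q-PCR the study found the *Dgcr8* transcript not significantly lowered at E8.5 and markedly lower at E9.5. *Mesp1* marks early mesoderm, so cells of other origin within the dissected tissue keep *Dgcr8*. The hearts labelled wild type (WT) came, according to the study's methods, from embryos with floxed *Dgcr8* alleles and no Cre. Both genotypes carried 1 copy of the *Rosa26* mT/mG reporter, and the cKO hearts therefore also differed from WT by the Cre allele. The number of hearts pooled in a library was not given in the sources used here.

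Wnt proteins are secreted lipid-modified glycoproteins that bind Frizzled receptors. In the canonical branch they stabilise β-catenin, which then acts with TCF/LEF proteins on target genes such as *Axin2*. In the non-canonical branch they act on cell polarity and movement without β-catenin. Secreted frizzled-related proteins (Sfrp) bind the ligands outside the cell, and Dickkopf-1 (*Dkk1*) blocks the Lrp co-receptors. In the embryonic heart, canonical Wnt signals are known to promote the expansion of cardiac progenitors, while *Wnt11* and *Wnt5a* are the classical non-canonical ligands of cardiac mesoderm.

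The DNA just before the start of 4 of these genes is shown first, because TCF/LEF proteins bind short motifs of the CTTTG type and because these genes include a pair of classical canonical targets. The sequences are the 250 bases upstream of the RefSeq start site that coincides with the gene's end in the table (RefSeq, GRCm38.p6), written 5′ to 3′ on the strand of the gene. Capitals mark, on either strand, the motif CTTTGAA, the motif CTTTGAT, the motif CTTTGTA or the motif CTTTGTT.
Dkk1, chr19:30549497-30549746, minus strand: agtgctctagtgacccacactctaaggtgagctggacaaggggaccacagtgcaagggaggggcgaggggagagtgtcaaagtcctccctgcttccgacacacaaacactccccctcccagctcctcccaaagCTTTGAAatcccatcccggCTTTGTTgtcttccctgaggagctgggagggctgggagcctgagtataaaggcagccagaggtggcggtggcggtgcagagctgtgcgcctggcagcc
Wnt11, chr7:98834862-98835111, plus strand: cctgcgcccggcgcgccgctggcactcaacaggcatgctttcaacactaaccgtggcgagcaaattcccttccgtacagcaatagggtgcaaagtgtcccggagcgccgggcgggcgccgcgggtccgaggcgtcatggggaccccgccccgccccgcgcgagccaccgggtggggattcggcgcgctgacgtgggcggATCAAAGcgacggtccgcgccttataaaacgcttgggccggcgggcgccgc
Axin2, chr11:108920099-108920348, plus strand: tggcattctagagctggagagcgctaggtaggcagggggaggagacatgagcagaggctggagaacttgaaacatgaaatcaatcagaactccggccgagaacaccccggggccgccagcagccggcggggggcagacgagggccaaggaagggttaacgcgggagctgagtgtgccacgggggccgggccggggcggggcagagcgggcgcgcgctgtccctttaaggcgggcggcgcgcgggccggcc
Lef1, chr3:131110047-131110296, plus strand: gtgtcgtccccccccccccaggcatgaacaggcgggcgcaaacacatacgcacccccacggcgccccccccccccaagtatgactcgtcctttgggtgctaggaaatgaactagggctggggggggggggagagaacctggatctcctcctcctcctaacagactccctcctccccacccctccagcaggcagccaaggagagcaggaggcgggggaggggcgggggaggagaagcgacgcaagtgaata
*Dkk1* held 2 motifs, CTTTGAA at 117 and CTTTGTT at 98 bases before its start. *Wnt11* held 1, read as ATCAAAG on the strand shown, 51 bases before its start. The motifs did not overlap. None lay in the windows shown for *Axin2* and *Lef1*, nor in those of *Wnt2* and *Sfrp5*. RefSeq gives further starts of *Lef1*, and 147 bases before 1 of them a motif read as TACAAAG was found. Of 32851 promoter windows of this length, which include several starts of some genes, 14.8% held at least 1 motif and 1.43% held at least 2. Windows were found for 6 of the 8 genes, and *Wnt5a* and *Sfrp1* were the others.

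Levels are given as FPKM, fragments scaled to the length of the transcript and to the depth of the library, as the authors deposited them. FPKM is scaled by length, so levels of different genes may be compared. The smallest steps between low values, read with annotated transcript lengths, put the depth of a library at an estimated 12267942 to 18007611 fragments. The median FPKM of the tested genes ranged from 3.85 to 9.90 across libraries and was lower at E9.5, so the change of the median gene is given with each comparison. At E8.5 *Dgcr8* itself stood at 7.10 and 8.60 FPKM in the WT libraries against 1.64 and 4.67 in the cKO libraries, and at E9.5 the WT values of 3.49 and 3.23 FPKM stood against 1.15 and 1.77 in cKO. It lay lower in every cKO library than in either WT library of its stage, but neither difference passed the test (limma adjusted p = 0.590 and 0.317). All 10 cardiomyocyte markers were detected in each library, with summed levels between 25798 and 80272 FPKM, so the labelled tissue carried its defining genes. These are bulk samples, in which fewer cells of a type and less RNA per cell cannot be told apart.

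The Wnt ligand signal of these hearts came almost wholly from *Wnt2*, *Wnt5a* and *Wnt11*. Of the 19 Wnt ligand genes in the table, these 3 reached 1 FPKM in every library and the other 16 averaged at most 0.448 FPKM over the 8 libraries. Together they held between 88.0% and 99.3% of the summed ligand FPKM of a library. *Wnt2* held the largest share, 43.1% to 82.7%, *Wnt5a* held 8.79% to 31.1% and *Wnt11* 5.37% to 15.2%. *Wnt5a* was above *Wnt11* in each library but E9.5 cKO replicate 1. The ligand levels of E8.5 libraries summed to 103.3 and 126.6 FPKM (WT) and to 163.5 and 100.3 FPKM (cKO), and those of E9.5 libraries to 44.8 and 22.4 FPKM (WT) and to 65.3 and 63.0 FPKM (cKO). At E9.5 both cKO sums lay above both WT sums, while at E8.5 the groups overlapped. Across all 8 genes, *Wnt2* was the most and *Axin2* the least abundant in each of the 8 libraries. The genes between them changed places: *Lef1* ranked second in 4 libraries, and *Sfrp5*, *Wnt11* or *Wnt5a* did in the rest.

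**Figure D1:**
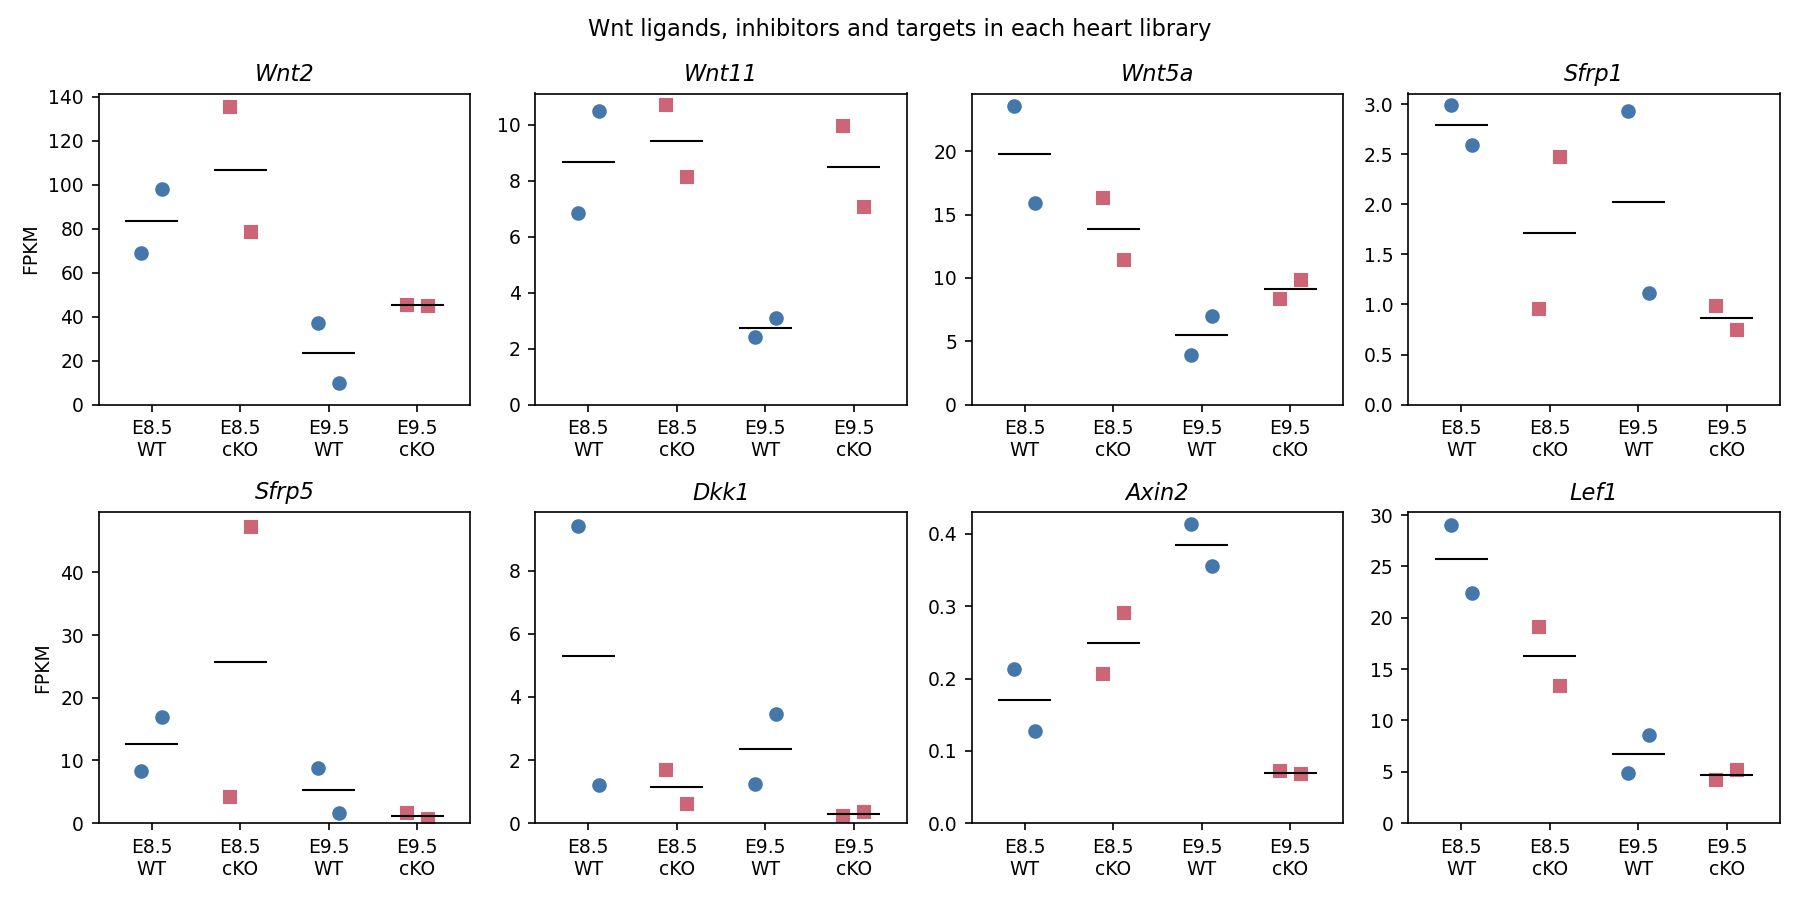
FPKM (y axis, linear and starting at 0) of the 8 Wnt genes in each library, by stage and genotype (x axis). Blue circles are WT and red squares cKO libraries, and black bars are group means of 2. At E9.5 the cKO squares lie above the WT circles for the 3 ligands and below them for *Sfrp1*, *Sfrp5*, *Dkk1* and *Axin2*.

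*Dgcr8* loss was compared at E9.5 first. The 3 ligands had higher levels in both cKO libraries than in either WT library, while the 3 inhibitors and *Axin2* had lower levels in both. Only *Lef1* overlapped. Of the 7 members tested, 3 thus lay higher and 3 lower without overlap, and *Axin2* was not tested. Among all 10018 tested genes, 21% lay higher and 31.1% lower in cKO without overlap, so a gene without overlap was not unusual at this stage. Of the 7 members that could be tested, 0 were called (adjusted p under 0.05 and at least 1.5-fold), against 0.18% of all tested genes. At an unadjusted p under 0.05 and 1.5-fold, 1 of 7 passed, *Wnt11*, against 15.1% of all tested genes. The median gene differed by -0.07 on the log2 scale. The same 7 genes lay apart in the same directions after each library was centred on its median gene. The 10 cardiomyocyte markers also summed higher in E9.5 cKO (80126 and 80272 FPKM) than in E9.5 WT libraries (58685 and 56850 FPKM), a sum made up mostly of *Actc1* and *Myl7*. Without overlap 6 of them were higher, *Myh6* was lower and 3 overlapped. The 8 endocardial and endothelial markers summed to 79.4 and 78.6 FPKM against 52.2 and 66.9 FPKM, but they did not move together: *Pecam1*, *Tie1* and *Nfatc1* were higher without overlap, *Tek* and *Npr3* lower, and 3 overlapped. None of these markers was listed at 0. Their part in the ligand values was not tested.

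*Wnt11* had the largest ratio of the ligands. It lies on chromosome 7 (98835112 to 98854747, GRCm38, protein-coding). It had 2.41 and 3.09 FPKM in the E9.5 WT libraries against 9.95 and 7.05 in the E9.5 cKO libraries, which gave means of 2.75 ± 0.48 and 8.50 ± 2.05 FPKM (SD, n = 2). The lower cKO library thus lay well above the higher WT library. The ratio of the means was 3.09. On the log2(FPKM + 1) scale *Wnt11* was higher by 1.33 (SE 0.30, 95% interval 0.64 to 2.02, limma unadjusted p = 0.0021, adjusted p = 0.116). Its adjusted p ranged from 0.065 to 0.762 over the alternative settings, and its difference from 1.11 to 1.58. At E8.5 *Wnt11* had 6.84 and 10.5 FPKM in the WT libraries against 10.7 and 8.15 in the cKO libraries, which overlapped. The log2 difference at that stage was 0.12 (SE 0.30, 95% interval -0.56 to 0.81, adjusted p = 0.874).

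*Wnt2* is the ligand best known from the venous pole and second heart field of the embryonic heart. The gene lies on chromosome 6 (17988940 to 18030445). Its level at E9.5 was 36.9 and 9.67 FPKM in the WT libraries against 45.5 and 44.8 in the cKO libraries. The cKO libraries were nearly equal and the WT libraries were far apart, with replicate 1 close below the cKO values. The log2 difference was 1.20 (SE 0.56, 95% interval -0.10 to 2.50, adjusted p = 0.353). Without E9.5 WT replicate 2 it was 0.28, and without E9.5 WT replicate 1 it was 2.11, so its size rested on which WT library was kept. At E8.5 *Wnt2* had 69.1 and 98.0 FPKM in the WT libraries against 135.3 and 78.3 in the cKO libraries. These overlapped, with a log2 difference of 0.32 (SE 0.56, adjusted p = 0.825).

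*Wnt5a* lies on chromosome 14 (28505473 to 28525515). It had 3.94 and 6.98 FPKM in the E9.5 WT libraries against 8.37 and 9.81 in the E9.5 cKO libraries. The groups lay next to each other without overlap, with a log2 difference of 0.68 (SE 0.34, 95% interval -0.09 to 1.46, adjusted p = 0.375). It was 0.34 without E9.5 WT replicate 1 and 1.03 without E9.5 WT replicate 2. At E8.5 the order was the other way round in the means. There *Wnt5a* had 23.6 and 15.9 FPKM in the WT libraries against 16.3 and 11.4 in the cKO libraries, a log2 difference of -0.48 (SE 0.34, adjusted p = 0.619). The E8.5 groups overlapped, and the difference ran from -0.74 to -0.21 with 1 library left out.

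None of the 3 inhibitors passed the test between genotypes. *Dkk1* on chromosome 19 (30545885 to 30549496) had 1.24 and 3.47 FPKM in the E9.5 WT libraries against 0.23 and 0.35 in the E9.5 cKO libraries. The ratio of the means was 0.123, the lowest of the 8 genes, and the log2 difference was -1.30 (SE 0.67, 95% interval -2.85 to 0.26, adjusted p = 0.399). The pseudocount of 1 compresses a gene at this level: with 0.1 in its place the difference was -2.50 (adjusted p = 0.227). Without E9.5 WT replicate 2 it was -0.80. At E8.5 *Dkk1* had 9.39 and 1.20 FPKM in the WT libraries against 1.67 and 0.62 in the cKO libraries, so that E8.5 WT replicate 1 stood apart and the groups overlapped. On the log2 scale it differed by -1.20 (SE 0.67, adjusted p = 0.596), and it was -0.083 without E8.5 WT replicate 1 and -2.32 without E8.5 WT replicate 2. Averaged over both stages *Dkk1* differed by -1.25 (SE 0.48, unadjusted p = 0.031, adjusted p = 0.222). That difference was -0.69 without E8.5 WT replicate 1 and -1.81 without E8.5 WT replicate 2.

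The library with the highest *Dkk1* also had the highest summed level of the 6 foregut endoderm markers, 68.7 FPKM against 10.998 to 32.1 FPKM in the other 7 libraries. Most of that sum was *Epcam* and *Hhex*, while *Shh* was listed at 0 in 6 libraries. The 8 second heart field markers summed to 67.5 FPKM in the same library, the highest of all, and to 46.3 FPKM in the other E8.5 WT library, against 21.1 and 29.3 FPKM in E8.5 cKO hearts, with *Tbx1* listed at 0 in 5 of the 8 libraries. At E9.5 the foregut sums were 32.1 and 16.1 FPKM in the WT libraries against 10.998 and 14.3 in the cKO libraries, but *Epcam* alone was lower without overlap and the other 5 markers overlapped. Whether these cells have a part in the *Dkk1* values was not tested.

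*Sfrp5* on chromosome 19 (42197971 to 42202252) varied most between replicates. Its E9.5 levels were 8.82 and 1.70 FPKM in the WT libraries against 1.69 and 0.68 in the cKO libraries, so that WT replicate 2 and cKO replicate 1 were practically equal and the separation rested on WT replicate 1. The log2 difference was -1.28 (SE 1.01, 95% interval -3.60 to 1.04, adjusted p = 0.610). It was -0.35 without WT replicate 1 and -2.21 without WT replicate 2. At E8.5 the levels were 8.28 and 16.9 FPKM in the WT libraries against 4.10 and 47.3 in the cKO libraries. The cKO replicates held the lowest and the highest value of that stage, and the log2 difference of 0.29 (SE 1.01, adjusted p = 0.921) became -1.34 without cKO replicate 2. The same cKO replicate 2 had the highest sum of 5 decidual markers, 5158 FPKM, against 14.7 FPKM in replicate 1 and 474.1 and 1171 FPKM in E8.5 WT libraries. Of the 5158 FPKM, *Prl8a2* alone gave 5104, and *Mmp2* and *Dio3* were not highest in that library. At E9.5 those sums were 8.29 to 11.9 FPKM. *Sfrp4*, another member of the inhibitor family, was likewise lowest in cKO replicate 1 and highest in cKO replicate 2 of E8.5, with 11.4 and 7.64 FPKM in the WT libraries against 0.24 and 29.1 in the cKO libraries. Without cKO replicate 2 it was called lower in cKO, by limma with 1 cKO library left (-3.06, adjusted p = 0.0157), against -0.76 with all libraries. The part of decidual tissue in the *Sfrp5* values was not tested.

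*Sfrp1* on chromosome 8 (23411502 to 23449632) was lower in both cKO libraries than in either WT library at both stages, which held for 18.3% of all tested genes. It had 2.99 and 2.59 FPKM in E8.5 hearts of WT against 0.95 and 2.48 in the E8.5 cKO libraries. The E9.5 levels were 2.94 and 1.12 FPKM in the WT libraries against 0.98 and 0.75 in the cKO libraries. The gap between the nearest libraries was small each time. The log2 difference was -0.54 at E8.5 (SE 0.37, adjusted p = 0.617) and -0.63 at E9.5 (SE 0.37, adjusted p = 0.465). It was -0.12 at E8.5 without cKO replicate 1 and -0.19 at E9.5 without WT replicate 1, so its size rested on 1 library at each stage. After centring on the median gene the E8.5 groups overlapped and the E9.5 groups did not. The 5 proepicardial markers, of an outer heart lineage, also summed lower in E9.5 cKO (12.9 and 13.9 FPKM) than in E9.5 WT libraries (39.5 and 24.9 FPKM). At E8.5 that sum ran from 10.03 to 15.5 FPKM in WT and from 9.35 to 10.7 FPKM in cKO, with *Tbx18* listed at 0 in 1 library. The part of these cells in the levels of the inhibitors was not tested.

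*Axin2*, the feedback gene most widely used as a readout of canonical Wnt signalling, was at the floor of these libraries. It lies on chromosome 11 (108920349 to 108950781). Its levels were 0.413 and 0.355 FPKM in the E9.5 WT libraries against 0.0722 and 0.0674 in the E9.5 cKO libraries, with means of 0.384 ± 0.041 and 0.0698 ± 0.0034 FPKM (SD, n = 2). The ratio of the means was 0.182. By the estimated depth and the longest annotated transcript these were about 24.5 and 27.2 fragments in WT and 4.58 and 4.70 in cKO, so the values rest on few fragments. At E8.5 *Axin2* had 0.213 and 0.128 FPKM in the WT libraries against 0.206 and 0.291 in the cKO libraries, which overlapped. With a mean of 0.218 FPKM over the 8 libraries it was below the limit of 1 FPKM and was not tested. When no limit was set, its log2 difference at E9.5 was -0.37 (limma adjusted p = 0.206). The pseudocount of 1 compresses it strongly, and with 0.1 it was -1.51.

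*Lef1*, a DNA-binding partner of β-catenin and itself a target, lies on chromosome 3 (131110297 to 131224357). It had 4.91 and 8.56 FPKM in the E9.5 WT libraries against 4.16 and 5.22 in the E9.5 cKO libraries. These groups overlapped, with a log2 difference of -0.41 (SE 0.33, 95% interval -1.16 to 0.34, adjusted p = 0.616). It was -0.060 without E9.5 WT replicate 2 and -0.75 without E9.5 WT replicate 1. At E8.5 it had 29.1 and 22.4 FPKM in the WT libraries against 19.1 and 13.4 in the cKO libraries. Both cKO libraries lay below both WT libraries, and the log2 difference was -0.64 (SE 0.33, adjusted p = 0.590) and -0.40 without cKO replicate 2. After centring on the median gene these groups overlapped too.

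At E8.5 none of the 7 tested members passed any threshold. Of these 7, *Sfrp1* and *Lef1* were lower in cKO without overlap, 0 were higher and 5 overlapped, as did *Axin2*, which was not tested. Over all tested genes 40.1% lay lower and 2.54% higher without overlap, with a median difference of -0.28. By limma 0 members were called, against 0.00998% of all tested genes, and 0 passed at an unadjusted p under 0.05 and 1.5-fold, against 7.14%. The adjusted p of the members ran from 0.590 to 0.921. Of the 8 second heart field markers, 6 were lower in E8.5 cKO without overlap and 0 were higher. Their part in the E8.5 values of the members, *Lef1* and *Sfrp1* included, was not tested. The E8.5 comparisons of *Wnt2*, *Dkk1* and *Sfrp5* had standard errors of 0.56, 0.67 and 1.01, so sizeable differences were not detectable there.

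Averaged over both stages, 0 members were called, against 0.0399% of all tested genes. At an unadjusted p under 0.05 and 1.5-fold, *Wnt11* was higher by 0.73 (SE 0.21, unadjusted p = 0.0088, adjusted p = 0.154) and *Dkk1* was lower, as given above. These 2 of 7 stand beside 11% of all tested genes, and the median gene differed by -0.17. The other 5 had adjusted p-values between 0.271 and 0.863.

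**Figure D2:**
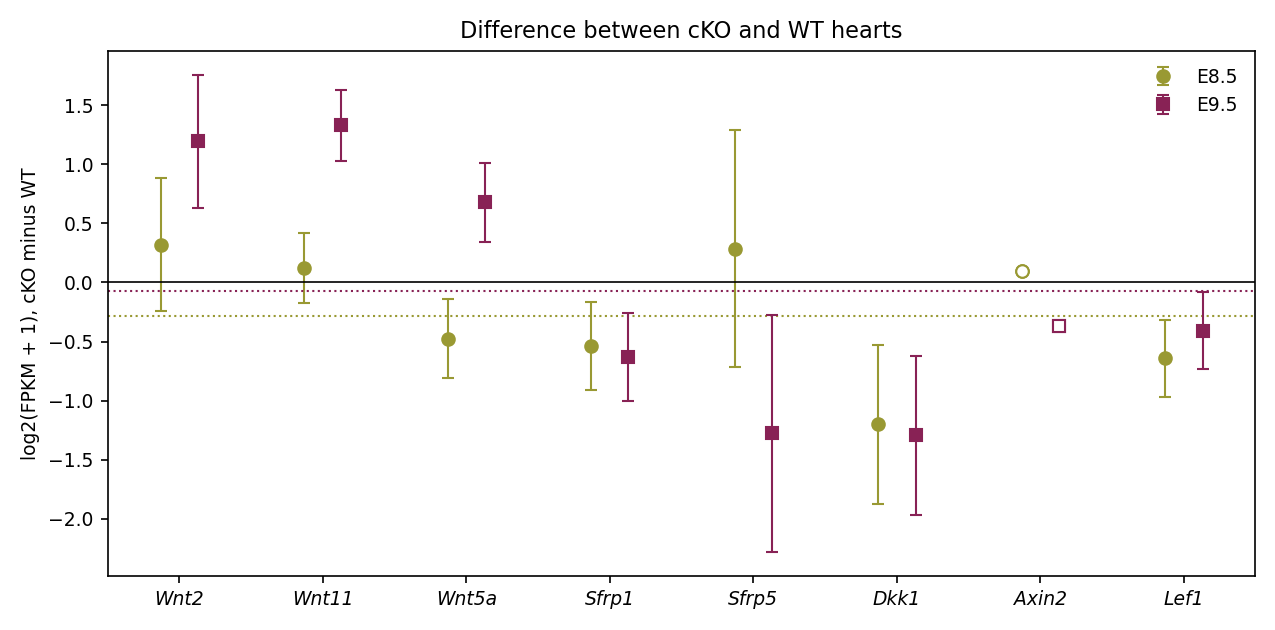
Difference between cKO and WT means on the log2(FPKM + 1) scale (y axis) for each gene (x axis) at E8.5 (circles) and E9.5 (squares). Bars are 1 standard error from limma, dotted lines are the median gene at each stage, and open symbols are *Axin2*, which was not tested. At E9.5 the 3 ligands lie above 0, at 0.68 to 1.33, and the inhibitors and targets lie below it.

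The cKO difference was then compared between the stages. The interaction is the cKO difference at E9.5 minus that at E8.5, and it was 0.18 for the median gene. It was 1.21 for *Wnt11* (SE 0.42, unadjusted p = 0.0213, adjusted p = 0.684), 1.16 for *Wnt5a* (SE 0.47, unadjusted p = 0.041, adjusted p = 0.693) and 0.88 for *Wnt2* (SE 0.80, adjusted p = 0.846). Without E9.5 WT replicate 2 that of *Wnt2* was -0.037. At an unadjusted p under 0.05 and 1.5-fold 2 of 7 members passed, against 7.18% of all tested genes. After adjustment by limma 0 were called, against 0.0399%. For *Dkk1* and *Sfrp1* the interactions were -0.092 and -0.094, with intervals of -2.29 to 2.11 and -1.31 to 1.12, so that neither a difference between stages nor its absence was shown. The interaction of *Sfrp5* was -1.56 (SE 1.42, adjusted p = 0.847), the largest in size of the 7, and that of *Lef1* was 0.24 (SE 0.46, adjusted p = 0.943). Groups apart at both stages in opposite directions were found for 0 of the 7 members, against 5.64% of all tested genes, or 5.36% with cKO lower at E8.5 and higher at E9.5.

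From E8.5 to E9.5 the ligands and *Lef1* fell in WT hearts, as did most tested genes. On the log2 scale *Wnt2* differed by -2.05 (SE 0.56, limma adjusted p = 0.0241), *Wnt11* by -1.35 (SE 0.30, adjusted p = 0.0154), *Wnt5a* by -1.70 (SE 0.34, adjusted p = 0.0133) and *Lef1* by -1.82 (SE 0.33, adjusted p = 0.0122). These 4 of 7 members called stand beside 48.1% of all tested genes, and the median gene fell by 0.84 over the same interval. Relative to the median gene the differences were -1.21, -0.51, -0.87 and -0.98. After centring on the median gene the groups of *Wnt2* and *Wnt11* overlapped, those of *Wnt5a* and *Lef1* stayed lower, and *Sfrp1* was higher at E9.5 without overlap. Under median-ratio scaling and quantile normalization, which remove the common shift, 0 of the 4 remained called, with differences of -0.36 to -1.29. *Wnt2* was also not called when no limit was set on low values, with the same difference of -2.05. The count was 0 when either E8.5 WT library was left out and 1 without E9.5 WT replicate 1. The difference of *Wnt2* was -1.13 and no longer called without E9.5 WT replicate 2. The inhibitors did not pass: *Sfrp1*, *Sfrp5* and *Dkk1* differed by -0.39, -1.32 and -0.60, with adjusted p-values of 0.379, 0.277 and 0.456. The difference of *Sfrp5* ran from -2.25 to -0.39 with 1 library left out. Without overlap, 4 of the 7 tested members were lower at E9.5 in WT hearts, against 80.1% of all tested genes, and 0 were higher, against 5.43%. *Axin2*, not tested, was higher. When no limit was set, its log2 difference was 0.24 (limma adjusted p = 0.0432), short of 1.5-fold, and with a pseudocount of 0.1 it was 0.85. In the same WT hearts the second heart field markers summed to 67.5 and 46.3 FPKM at E8.5 and to 7.51 and 13.0 FPKM at E9.5, and the decidual markers to 474.1 and 1171 FPKM and then to 9.39 and 11.4 FPKM. Of these markers 5 of 8 and 5 of 5 were lower at E9.5 without overlap, beside 80.1% of all tested genes. So were 6 of the 8 endocardial and endothelial markers, beside the same share. The cardiomyocyte markers summed to 25798 and 42633 FPKM at E8.5 and to 58685 and 56850 FPKM at E9.5. Without overlap 7 of 10 were higher, as were 3 of 5 proepicardial markers and 4 of 9 yolk sac endoderm markers. These counts stand beside 5.43% of all tested genes. The cardiomyocyte markers *Ryr2* and *Hand2* and the proepicardial *Wt1* were lower without overlap. The part of these cells in the stage changes was not tested.

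In cKO hearts *Lef1* fell by 1.58 between the stages (SE 0.33, adjusted p = 0.0179), beside the difference of -1.82 in WT hearts. It was the 1 of 7 members called, against 30.6% of all tested genes, while the median gene fell by 0.64. It was not called under median-ratio scaling (-0.92), under quantile normalization (-0.84) or without either E9.5 cKO library. The ligands did not pass: *Wnt2*, *Wnt5a* and *Wnt11* differed by -1.17, -0.54 and -0.14, with adjusted p-values of 0.136, 0.226 and 0.732. The difference of *Wnt5a* ran from -0.78 to -0.30 with 1 library left out. *Wnt2* was called, with the same difference, when either E9.5 WT library was left out of the fit (lowest adjusted p = 0.0482). *Sfrp5* differed most, by -2.88 (SE 1.01, adjusted p = 0.0601), and by -1.26 without E8.5 cKO replicate 2, the library with the high decidual markers. Without E8.5 cKO replicate 1 it differed by -4.51 and was called. Without overlap, 5 of the 7 tested members were lower at E9.5 in cKO hearts, against 62.7% of all tested genes, and 0 were higher, against 7.05%. *Axin2*, not tested, was lower too. After centring, *Sfrp5* and *Lef1* stayed lower, *Wnt11* was higher and the other 4 tested members overlapped. *Axin2* came out higher after centring only because the pseudocount of 1 compresses its fall, from a mean of 0.249 to 0.0698 FPKM. With a pseudocount of 0.1 it differed by -1.03, against -0.79 for the median gene. *Wnt11* had 8.15 to 10.7 FPKM at E8.5 and 7.05 to 9.95 FPKM at E9.5 in cKO hearts, ranges that overlapped. In WT hearts it went from 6.84 to 10.5 FPKM at E8.5 to 2.41 to 3.09 FPKM at E9.5. Between the cKO stages 4 of 8 second heart field and 4 of 5 decidual markers were lower at E9.5 without overlap, beside 62.7% of all tested genes. Without overlap 6 of 10 cardiomyocyte markers were higher, beside 7.05%, and *Hand2* was lower. The part of these cells in the member values was not tested. Whether the stage change of *Wnt11* differs between genotypes is the interaction given above, which did not pass after adjustment.

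**Figure D3:**
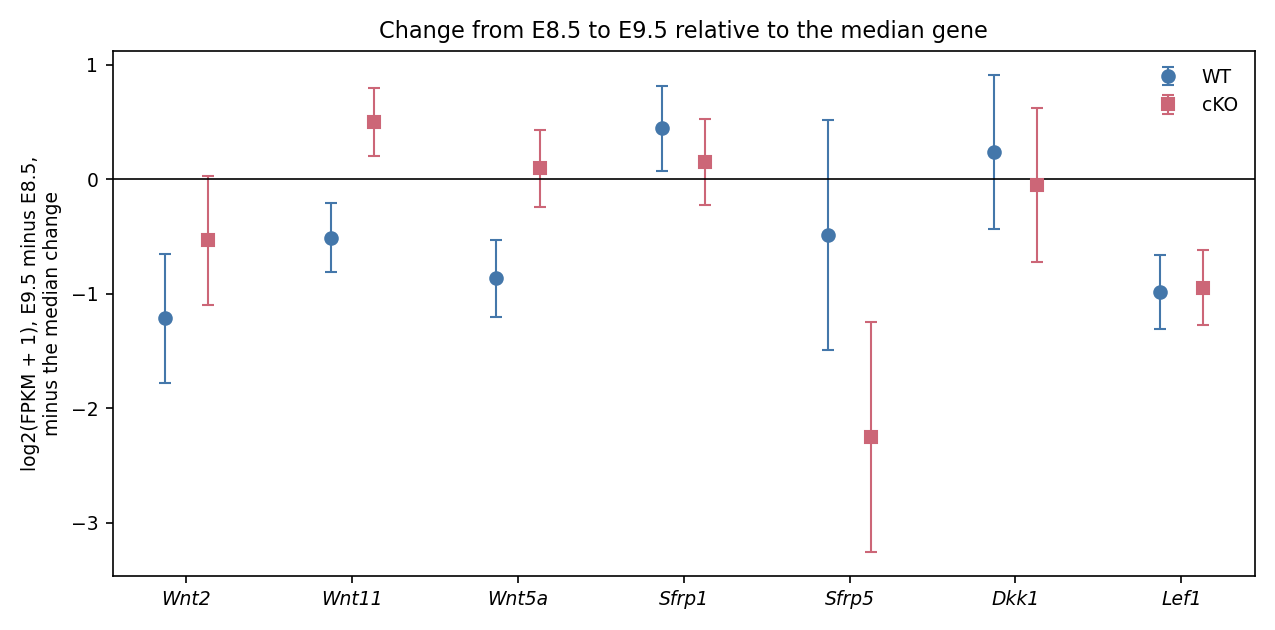
Change from E8.5 to E9.5 on the log2(FPKM + 1) scale minus the median change of all tested genes (y axis) for the 7 tested genes (x axis), in WT (circles) and cKO hearts (squares). Bars are 1 standard error from limma. *Lef1* has nearly the same value in both genotypes (-0.98 and -0.95), while *Wnt11* lies below 0 in WT and above it in cKO hearts.

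The rest of the pathway was examined with a list of 103 further Wnt genes, of which 44 had a mean of at least 1 FPKM. At E9.5, 0 of the 44 were called between the genotypes, beside 0.18% of all tested genes. At an unadjusted p under 0.05 and 1.5-fold, 3 were higher and 2 were lower, beside 15.1% of all tested genes in either direction. Without overlap 12 were higher, beside 21%, and 8 lower, beside 31.1%, and the median difference was 0.09 against -0.07 over all tested genes. At E8.5 0 were called, beside 0.00998%, and 1 passed without adjustment, beside 7.14%.

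The 5 genes that passed without adjustment at E9.5 had the following values. *Porcn*, the acyltransferase that attaches the lipid to Wnt proteins, had 0.84 and 0.95 FPKM in the WT libraries against 2.43 and 2.12 in the cKO libraries (log2 difference 0.79, SE 0.29, adjusted p = 0.243). *Wls*, the other secretion gene, which carries Wnt proteins to the cell surface, is named after its values were seen. It had 26.7 and 64.2 FPKM in the WT libraries against 17.9 and 28.9 in the cKO libraries, which overlapped (-0.84, SE 0.43, adjusted p = 0.388, and -0.22 without WT replicate 2). *Prickle1*, a core planar polarity gene, had 2.31 and 2.78 FPKM in the WT libraries against 5.36 and 4.69 in the cKO libraries (0.77, SE 0.25, adjusted p = 0.196). *Sost* encodes sclerostin, a secreted inhibitor that binds Lrp5 and Lrp6. It lay higher in both cKO libraries, with 3.81 and 1.81 FPKM in the WT libraries against 13.4 and 12.5 in the cKO libraries (1.92, SE 0.37, adjusted p = 0.101). Of the 4 inhibitor genes tested besides the members, *Sfrp4* was near the floor at E9.5, with 0 to 0.246 FPKM. Of the same 4, 2 were higher without overlap and 0 lower, beside the same 21% and 31.1%, with a median of 0.33. They were *Sost* and *Dkk3*, the latter with 15.1 and 18.0 FPKM in the WT libraries against 22.0 and 30.7 in the cKO libraries (0.63, SE 0.34, adjusted p = 0.421, and 0.40 without cKO replicate 2). *Csnk1a1*, the casein kinase that primes β-catenin for degradation, had 76.4 and 122.3 FPKM in the WT libraries against 36.8 and 69.0 in the cKO libraries (-0.92, SE 0.37, adjusted p = 0.285). Its difference was -0.48 without cKO replicate 1 and -0.59 without WT replicate 2. *Tnfrsf19*, a β-catenin target, differed by -0.79 (SE 0.26, adjusted p = 0.210). It had 3.41 and 4.70 FPKM in the WT libraries against 1.64 and 2.19 in the cKO libraries.

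The receptors and the target genes were also counted by role. Of 7 receptor and co-receptor genes above the limit, 3 were higher in E9.5 cKO hearts without overlap, beside 21% of all tested genes, and 0 were lower, beside 31.1%, with a median difference of 0.42. The 3, named after their values were seen, were *Fzd1* (0.62), *Fzd2* (0.69) and *Ptk7* (0.67), with adjusted p-values of 0.358 to 0.462. *Fzd2* differed by 0.22 without cKO replicate 1 and by 1.17 without cKO replicate 2. Of 4 feedback and target genes besides the members, 3 were lower without overlap and 0 were higher, beside the same shares, with a median of -0.78. These were *Tnfrsf19*, *Ccnd1*, which encodes cyclin D1, and *Myc*, the last again named after its value was seen (-0.87, SE 0.46, adjusted p = 0.407). Without WT replicate 1 the difference of *Myc* was -0.42 and that of *Ccnd1* -0.32, against -0.77 with all libraries. After centring, the *Ccnd1* groups overlapped. With so few genes in each role and 0 called, no role is shown to differ from the other genes of the heart.

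**Figure D4:**
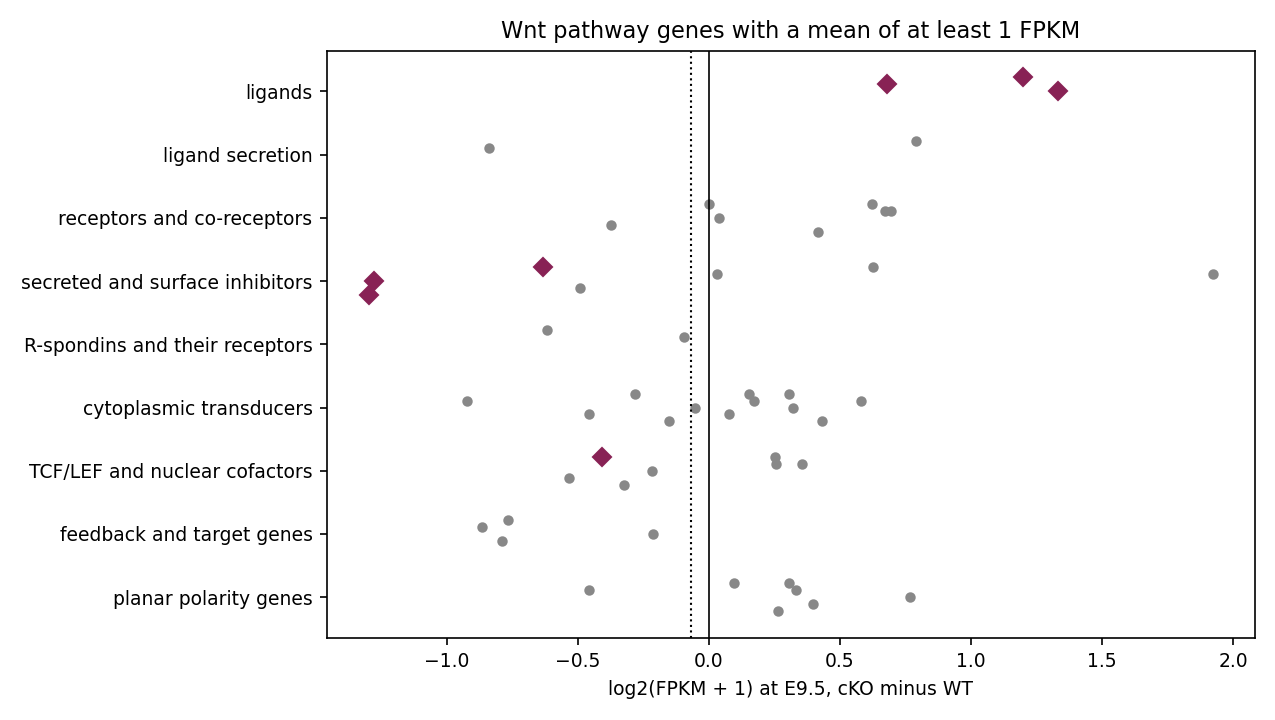
Genotype difference (cKO minus WT) at E9.5 on the log2(FPKM + 1) scale (x axis) for each gene of the Wnt pathway with a mean of at least 1 FPKM, grouped by role (y axis). Purple diamonds are the 7 tested members, grey circles the other 44 genes, and the dotted line is the median of all tested genes (-0.07). The member ligands lie to the right and the member inhibitors to the left, with *Sost* farthest right at 1.92.

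At E8.5 the gene named by the same limits was *Frzb*, a secreted frizzled-related inhibitor. It had 27.5 and 4.91 FPKM in the WT libraries against 2.16 and 2.58 in the cKO libraries, with the highest value in the same WT replicate 1 that was highest for *Dkk1* and for the foregut markers. The log2 difference was -1.95 (SE 0.66, adjusted p = 0.590), and it was -0.81 without WT replicate 1 and -3.08 without WT replicate 2.

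Between the stages in WT hearts, 1 of the 44 was called higher and 24 were called lower, beside 48.1% of all tested genes in either direction, with a median of -0.91 against -0.84 over all tested genes. In cKO hearts 2 were called higher and 10 lower, beside 30.6%, with a median of -0.63 against -0.64. *Dkk3*, a divergent Dickkopf family member, was the gene that rose in WT hearts, from 5.30 and 7.05 FPKM to 15.1 and 18.0 FPKM (1.30, SE 0.34, adjusted p = 0.0214). *Ctnnb1*, which encodes β-catenin, fell from 68.6 and 52.5 FPKM to 22.9 and 15.6 FPKM (-1.61, SE 0.35, adjusted p = 0.0147). *Tnks2*, a tankyrase that destabilises Axin, fell from 8.05 and 7.44 FPKM to 1.09 and 1.87 FPKM (-1.84, SE 0.37, adjusted p = 0.0140). *Ccnd1* (1.18, adjusted p = 0.0561) and *Sfrp4* (-3.24, adjusted p = 0.0522) missed the threshold. *Sfrp4* passed the limit of 1 FPKM through its E8.5 levels. In WT hearts it went from 11.4 and 7.64 FPKM to 0 and 0.19 FPKM, which is near the floor. The part of decidual tissue in that fall was not tested. *Dkk3* and *Ctnnb1* were no longer called when any 1 of the 4 WT libraries was left out, nor was *Tnks2* except without E9.5 WT replicate 2, while *Ccnd1* and *Sfrp4* were called when either E8.5 cKO library was left out of the fit. Under median-ratio scaling 2 of the 44 were called between WT stages, and under quantile normalization 1.

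The genes whose pattern over the 8 libraries was most like that of each member are given as a description. The measure was the Pearson correlation of log2(FPKM + 1), centred on the median gene of each library and taken as the highest among all tested genes, and all points share their libraries. *Lef1* was most like *Epb41l5* (0.987) and *Atl2* (0.983), and *Wnt11* most like *Mta3* (0.980) and *Spryd3* (0.967). *Spryd3*, picked by this likeness, had 4.50 and 4.004 FPKM in the E9.5 WT libraries against 18.7 and 14.3 in the E9.5 cKO libraries. *Wnt2* was most like *Csrp2* (0.957), a LIM-domain protein gene, and *Kctd15* (0.943). For *Wnt5a* they were *Ap4b1* (0.929) and *Serinc5* (0.903), the lowest values of the 7. The inhibitors were most like *Rab13* (0.980) and *Hcfc1* (0.941) for *Sfrp1*, *Glud1* (0.982) and *Rac1* (0.962) for *Sfrp5*, and *Rad54l* (0.953) and *Sdc2* (0.929) for *Dkk1*. None of the 14 genes was shared between members.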

How the data were processed

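RNA sequencing was measured in 8 heart libraries, which were grouped by their labels. Total RNA was amplified with a SMARTer Ultra Low kit (per the labels). The authors deposited FPKM values per gene and library in 1 table. Their processing notes name BWA and mm9, but 91.7% of 9515 tested genes started within 1000 bp of GRCm38, so positions are given on GRCm38. The program behind the FPKM was not given in the sources used here. FPKM is relative to the library total, so abundant transcripts shift all others.

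Of repeated symbols (285) only the most abundant entry was used. The 10018 genes averaging 1 FPKM or more were tested on log2(FPKM + 1) with limma 3.58.1 (R 4.3.3), fitting all 4 groups together with trended moderated variances and Benjamini-Hochberg adjustment over all of them. Fold changes on this scale understate changes of low genes. With 2 libraries a group, the smallest exact permutation p is 0.333. Count tests were not used.

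The members, gene lists, marker lists and tests were chosen with earlier results of these data known. Named beside the members were, among the other Wnt genes, the up to 4 strongest rises and 4 strongest falls between genotypes (3 and 3 between WT stages, on values centred on the median gene) at an unadjusted p under 0.05, 1.5-fold and no overlap, every called gene between genotypes, the 2 most correlated genes per member, and *Dgcr8*. Alternatives were another pseudocount, low-value limit, scaling, set of libraries and variance model, a replicate block, and leaving out each library.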

Additional observations from a re-analysis of the deposited data

Results flagged for a closer look

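Of the 7 members and the 44 other Wnt genes tested, *Sost*, *Prickle1* and *Ptk7* had groups that did not overlap at either stage and lay in opposite directions. Among all 10018 tested genes 5.64% did so, and 5.36% did so in the same order, lower at E8.5 and higher at E9.5 in cKO. The 3 genes are about that share of the Wnt genes tested. They were picked by these same values, so the unadjusted p-values below give them no further weight. *Sost* had 5.35 and 9.49 FPKM in WT libraries of E8.5 against 5.11 and 3.18 in the E8.5 cKO libraries, and the order was turned at E9.5. The cKO difference at E9.5 minus that at E8.5 was 2.61 on the log2 scale (SE 0.52, limma unadjusted p = 0.0010, adjusted p = 0.302). *Prickle1* had 6.21 and 8.68 FPKM in WT libraries of E8.5 against 6.00 and 5.34 in the E8.5 cKO libraries, and its difference between stages was 1.09 (SE 0.35, unadjusted p = 0.0139, adjusted p = 0.617). *Ptk7*, a co-receptor of planar polarity signals, had 29.8 and 25.4 FPKM in WT libraries of E8.5 against 25.1 and 13.9 in the E8.5 cKO libraries, and 25.1 and 19.9 against 35.1 and 37.3 FPKM at E9.5. Its difference between stages was 1.20 (SE 0.45, unadjusted p = 0.0290, adjusted p = 0.689), or 0.80 without E8.5 cKO replicate 2. None of the 3 passed after adjustment. After centring on the median gene the E8.5 groups of all 3 overlapped.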

How the results depend on the processing

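No member was called between genotypes, at either stage or over both, or in the interaction, under any of the settings run. Between the stages the calls depended on scaling, and that of *Wnt2* in WT hearts also on the limit on low values (-2.05 and not called with none). In WT hearts 4 members were called as reported and 0 under median-ratio scaling or quantile normalization, and 25 of the other pathway genes became 2 and 1, or 10 with a mean of at least 5 FPKM. In cKO hearts 1 member became 2 with a pseudocount of 0.1 and 0 under both scalings, and 12 pathway genes became 2 with no filter, 5 at 5 FPKM, 3 and 3 under the scalings and 4 with only the cKO libraries. Leaving out 1 library gave 0 to 4 members and 0 to 29 pathway genes in WT, 0 to 2 and 0 to 12 in cKO hearts, and 0 to 1 pathway genes at E8.5 and over both stages.

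Under median-ratio scaling and quantile normalization the WT stage change of *Sfrp1* was 0.29 and 0.46 and that of *Dkk1* 0.095 and 0.31. In cKO hearts that of *Wnt11* was 0.55 and 0.62, that of *Wnt5a* 0.15 and 0.21, and that of *Sfrp1* 0.072 under quantile normalization. The interaction of *Lef1* was -0.023 and -0.0084, and with scaling to loci of at least 300 bp that of *Sfrp1* was 0.0066 and that of *Dkk1* 0.025. The causes were not tested beyond the common shift these scalings remove.

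With 1 library left out, differences that changed sign ran as follows on the log2 scale. At E8.5 they ran from -0.070 to 0.71 for *Wnt2*, from -0.15 to 0.40 for *Wnt11* and from -1.34 to 1.91 for *Sfrp5*. Over both stages they ran from -0.070 to 0.27 for *Wnt5a* and from -1.31 to 0.32 for *Sfrp5*. Between WT stages they ran from -0.84 to 0.055 for *Sfrp1* and from -1.72 to 0.52 for *Dkk1*, and between cKO stages from -0.36 to 0.082 for *Wnt11*. The interactions ran from -0.037 to 1.79 for *Wnt2*, from -0.54 to 0.35 for *Sfrp1*, from -3.18 to 0.060 for *Sfrp5*, from -1.21 to 1.03 for *Dkk1* and from -0.11 to 0.58 for *Lef1*. A group left with 1 library was assumed to vary like the others.

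The replicate numbers did not pair the libraries: the deviations of equally numbered libraries had correlations of -0.0036 (E8.5), 0.017 (E9.5), -0.12 (WT stages) and -0.047 (cKO stages). With the replicate number as a block, 4 members and 26 pathway genes were called between WT stages, 1 and 10 between cKO stages, and 0 in each other comparison. Crossing the numbers, an alternative chosen after seeing the data, gave 4 and 24 between WT stages.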
